A study of Mus musculus with 18 samples.

Results

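The genes described are 46 mouse genes of the nuclear pore and of RNA and protein transport between nucleus and cytoplasm, chosen by name: nucleoporins, exportins, importins, subunits of the mRNA export machinery, and Ran with its activating protein. All 46 were on the array, represented by 54 of its 37246 probes, and 8 of them had 2 probes. A gene is described here by its brightest probe. Expression was measured on Agilent one-color arrays, 1 array for each of 18 samples. The samples form 6 groups of 3: unirradiated embryonic stem cells (ES) and unirradiated isogenic cells differentiated from them (ED), ES cells at 15 min (ESRE) and 4 h (ESRL) after 10 Gy of ionizing radiation (IR), and ED cells at 15 min (EDRE) and 4 h (EDRL) after the same dose. The ES cells were primary and of early passage, and were kept on gelatin with leukemia inhibitory factor (LIF) and without feeder cells. ED cells were obtained by withdrawing LIF for a week or until stem cell markers were gone, so they were not sorted as 1 cell type. The labels call the samples triplicates and do not say whether the 3 came from separate cultures, so the p-values measure the spread between these samples, which may be technical.

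The nuclear pore complex spans both membranes of the nuclear envelope. Rings built from Y-shaped and inner ring subcomplexes hold a central channel that is filled with phenylalanine-glycine repeat nucleoporins, with a basket on the nuclear side and filaments on the cytoplasmic side. Importins and exportins carry their cargo through this channel under the control of the small GTPase Ran, whereas most mRNA leaves on the Nxf1-Nxt1 dimer after loading by the THO complex. Nucleoporin composition is known to differ between cell types, and Nup210 in particular is a pore membrane protein whose amount varies between tissues.

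Levels are given as the log2 signal minus the 75th percentile of the same array, so 0 is the brightness of that percentile, and every difference is a log2 difference. Spots marked as outliers by the scanner software were left out. A gene was called where the limma test gave a Benjamini-Hochberg adjusted p under 0.05 over all probes and the difference was over 1 in size. Of the 46 genes, 42 were well above background on all 18 arrays, Xpo7 on 15, Tnpo1 on 17, Nup93 on 3 and Nup214 on 0. Outlier marks fell mostly on bright probes and were most frequent on replicates 2 and 3 of EDRE, where 24.4% and 23.8% of all spots were marked against 3.33% to 11.1% on the other 16 arrays. On these replicates 57.6% of the 92 spots of the 46 genes were marked, against 24.9% of 736 on the other arrays. The arrays carried 6 scan times, and none of them held a group together with its own control, so scan time and group cannot be told apart in the comparisons with a control.

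**Figure D1:**
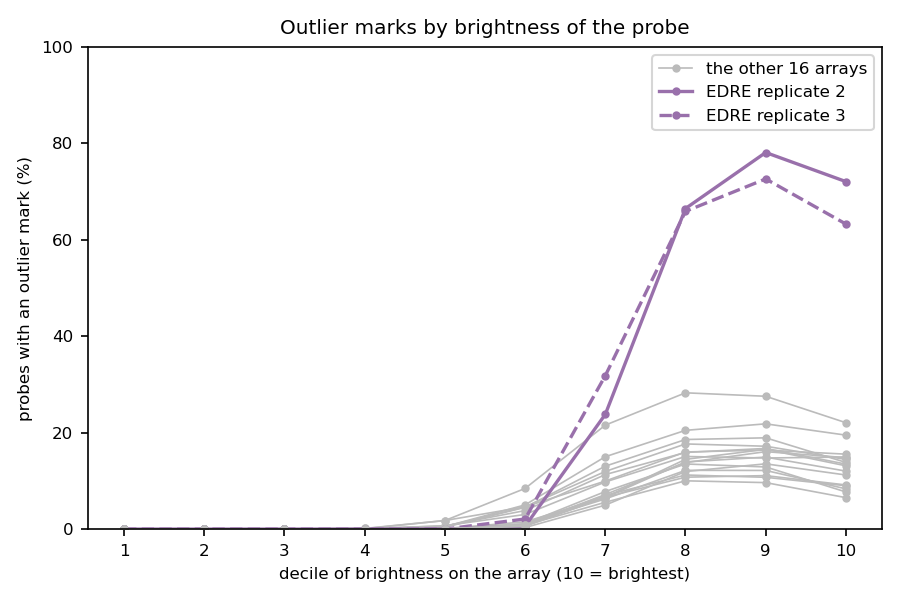
Percent of probes with an outlier mark (vertical axis) in each decile of brightness on an array (horizontal axis, 10 the brightest), with a line for each of the 18 arrays. Replicates 2 and 3 of EDRE reach 78.1% and 72.6% in decile 9, where the highest of the other 16 arrays, ES replicate 1, is at 27.6%.

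The labels of the cells were checked with marker genes. Of 11 embryonic stem cell markers tested, 10 were lower in ED than in ES, Pou5f1 by a log2 difference of -10.28 and Nanog, usable on 1 ES array, by -8.84, where 26.1% of all genes tested were lower, and Klf4 differed by 0.06. The summed signal of the 12 markers on the array was 620 to 633 times the 75th percentile in ES and 18.5 to 24.1 times in ED. Of 8 mesenchymal markers 6 were higher in ED, with a summed signal of 422 to 539 against 32.9 to 35.2 times the 75th percentile, and Thy1, which was well above background on no ED array, and Tagln were lower. All 4 trophectoderm markers were lower in ED, Krt8 by -9.38, with a summed signal of 103 to 105 in ES and 0.154 to 0.206 in ED. The ES sum was almost all Krt8. On ES replicate 1 its log2 level was 6.70, whereas Cdx2, Eomes and Elf5 were at -3.88, -3.91 and -5.53. Of the endoderm markers 3 of 4 tested were lower, and of 5 neural markers 1 was higher and 1 lower. The part of these other cell identities in the differences that follow was not tested, and in whole cultures fewer cells of a type and less RNA per cell cannot be told apart.

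Nup210 had by far the largest difference between the cell types among the 33 members that could be tested, and the 4 exportins were all called but split in direction. In ED against ES, 4 of the 33 were lower (Nup210, Xpo1, Xpo5 and Nup85) and 2 were higher (Xpot and Xpo7), where 41% of all 26139 genes tested were called, 14.8% higher and 26.1% lower. With no limit on the size (the p limit alone), 11 were lower and 4 higher, where 50.8% of all genes passed, 31.4% lower and 19.4% higher. The median difference of the 33 members was -0.44 and that of all genes -0.17. Among the 25 members measured on all 6 arrays, the ED and ES values did not overlap for 20, where 70.4% of all genes did not overlap.

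**Figure D2:**
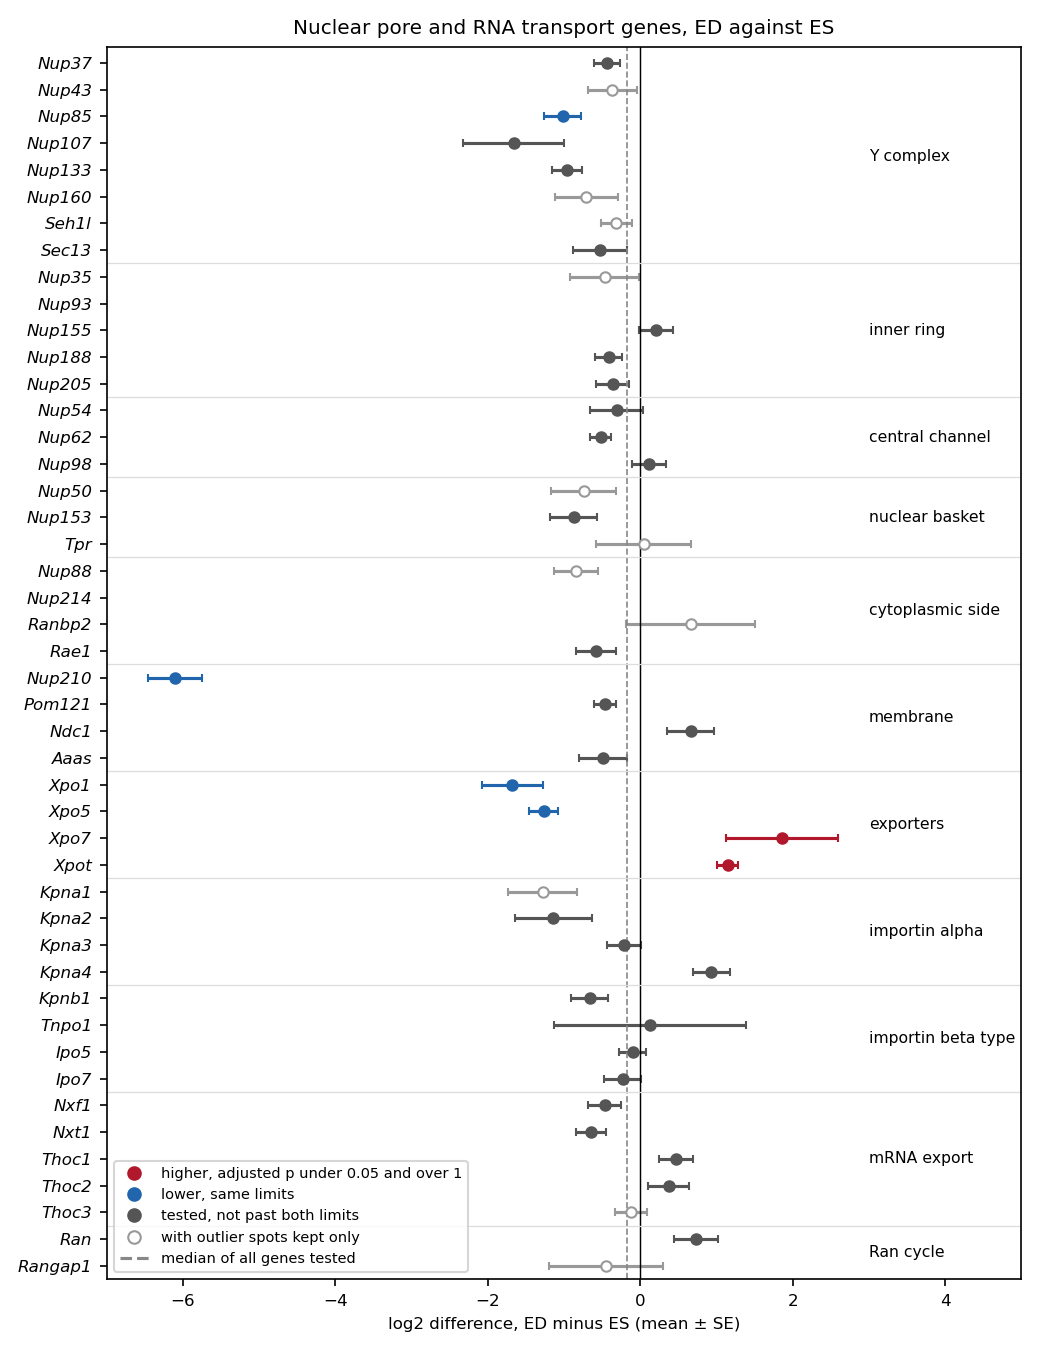
Log2 difference ED minus ES (horizontal axis) with its standard error for each member, grouped by role. Filled points are tested without outlier spots and open points are genes measured only with outlier spots kept. Nup93 and Nup214 have no point. Nup210 stands at -6.10, far from the other members, and the exportins lie on both sides of the dashed median of all genes at -0.17.

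Nup210 encodes a glycoprotein that anchors in the pore membrane. Its level was 2.82, 2.58 and 2.43 on the ES arrays and -4.14, -3.58 and -2.75 on the ED arrays. The groups lay far apart, with every ED array below every ES array. The difference was -6.10 ± 0.36 (SE, n = 3 and 3; limma adjusted p = 1.64e-09). After IR the gene kept the level of its cell type, at 2.54, 2.57 and 2.53 in ESRE, at 3.55, 2.31 and 2.37 in ESRL, at -3.39, -4.17 and -3.33 in EDRE and at -3.96, -4.13 and -4.15 in EDRL. The call held in all 18 fits that left out an array, and the difference lay between -6.10 and -5.46 under every other setting.

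Xpot exports tRNA. Its level was 3.79, 3.56 and 3.77 in ES and 4.74, 4.82 and 4.99 in ED, so every ED array was above every ES array. The difference was 1.15 ± 0.14 (SE, n = 3 and 3; limma adjusted p = 1.16e-05), and it held in every alternative and in all 18 fits with an array left out. Xpo5, which exports precursor microRNAs, went the other way. Its level was 2.48, 2.11 and 2.41 in ES and 1.23, 0.92 and 1.04 in ED, a difference of -1.27 ± 0.19 (SE; limma adjusted p = 1.3e-04).

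Xpo1 is the exportin for proteins with a leucine-rich export signal and for several classes of RNA. It stood at -3.22, -2.96 and -2.97 in ES and at -4.27, -4.50 and -5.43 in ED, without overlap, a difference of -1.68 ± 0.40 (SE; limma adjusted p = 0.00244). Its other probe gave -1.48 ± 0.36, also called. Xpo7, an exportin of broad cargo, was at -6.53, -6.73 and -6.51 in ES and at -5.08, -4.70 and -4.42 in ED, a difference of 1.86 ± 0.74 (SE; limma adjusted p = 0.0466). It was not well above background on replicate 3 of ESRE, replicate 1 of ESRL and replicate 2 of EDRE. Its ES level was steady, but the ESRE arrays ran up to -3.03, and the call held in only 4 of the 18 fits with an array left out.

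The Y complex forms the outer rings of the pore. Nup85, one of its subunits, was at 2.90, 3.14 and 2.75 in ES and at 2.33, 1.87 and 1.53 in ED, a difference of -1.02 ± 0.24 (SE; limma adjusted p = 0.00274). By their brightest probes, all 5 members of the complex that were tested had negative differences, from -1.66 (Nup107, SE 0.67, adjusted p = 0.134, 1 ES and 2 ED arrays) to -0.44 (Nup37), and Nup133 (-0.96) and Nup37 passed the p limit alone. Sec13 (-0.53) was measured on 1 ED array. The second probe of Nup37 gave -0.47 and also passed, whereas the dimmer probe of Seh1l, whose brightest could not be tested, gave 0.36 ± 0.24 and did not.

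**Figure D3:**
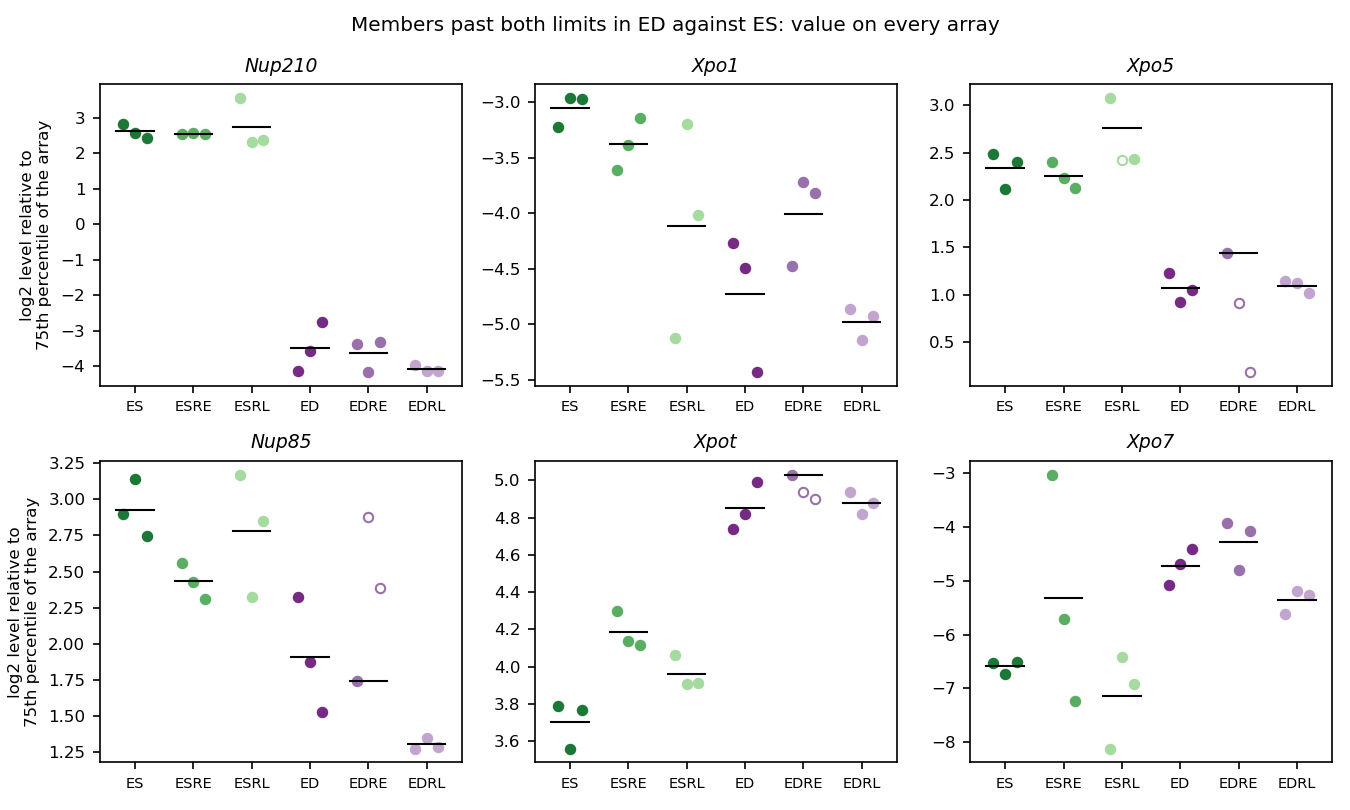
Log2 level minus the 75th percentile of the array (vertical axes, which differ between panels) on each of the 3 arrays of the 6 groups for the 6 members called in ED against ES. Bars are group means of the filled points, and open points are spots marked as outliers, which the means leave out. Nup210 lies between 2.31 and 3.55 on all stem cell arrays and between -4.17 and -2.75 on all ED, EDRE and EDRL arrays, and Xpot is lowest on the ES arrays.

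Other structural members moved less. In the basket, Nup153, which reaches from the nuclear ring into the nucleoplasm, was lower by -0.87 ± 0.31 (SE) and passed the p limit alone. Rae1, an mRNA export factor on the cytoplasmic side, was at -0.58 ± 0.26 and did not pass. In the central channel Nup62 (-0.52 ± 0.14) passed it, whereas Nup54 (-0.31) and Nup98 (0.12), both of which also carry phenylalanine-glycine repeats, did not. Of the inner ring, Nup155, Nup188 and Nup205 differed by 0.21, -0.42 and -0.36 and none passed. Beside Nup210 in the pore membrane, Pom121 was lower (-0.46 ± 0.15), and Ndc1 (0.66 ± 0.31) and Aaas (-0.49 ± 0.32) did not pass.

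Among the import receptors Kpna4, an adaptor that binds nuclear localization signals, was higher by 0.93 ± 0.24 (SE, limma adjusted p = 0.00574), and Kpnb1, the importin beta that carries such adaptors, was lower by -0.66 ± 0.24 (adjusted p = 0.0327). Neither reached the fold limit. Kpna2 (-1.14 ± 0.51, on 1 ES and 2 ED arrays), Kpna3, Ipo5, Ipo7 and Tnpo1 did not pass the test. Of the mRNA export genes Nxt1, the smaller partner of the export receptor, was lower by -0.65 ± 0.20, with its second probe at -0.56 and also past the p limit, and its partner Nxf1 differed by -0.47 (adjusted p = 0.0889). Thoc1 and Thoc2 of the THO complex were at 0.47 and 0.37 and did not pass. Ran itself was higher by 0.73 ± 0.29 (adjusted p = 0.0461).

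These directions depended on how the arrays were set to 1 scale. Setting each array to its median instead moved the median difference of all genes from -0.17 to 0.47, and 7 members were then higher and 2 lower. Under that scaling Nup210 and Xpo1 remained lower, Xpo5 (-0.63) and Nup85 (-0.38) kept their sign without the call, and the smaller negative differences turned positive, since 23 of 33 members had a positive difference against 10 of 33 with the main scaling. Relative to the median of all genes, 11 of 33 members were above it with either scaling. With scan time as a random block, whose consensus correlation was 0.81, Nup210 and Xpot were the members still called.

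On the same scan as the 3 ED arrays lay 1 stem cell array, replicate 3 of ESRE, which allows a view of the cell types within 1 scan, although that array was irradiated. Nup210 was at 2.53 on it against -4.14 to -2.75 in ED, and Xpot at 4.11 against 4.74 to 4.99. Xpo5 was at 2.13 against 0.92 to 1.23, Xpo1 at -3.14 against -5.43 to -4.27, and Xpo7, not well above background on that array, was below all ED arrays (-5.08 to -4.42). Nup85, at 2.31 against 1.53 to 2.33, was the only one of the 6 genes within the range of the ED arrays.

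The irradiated samples, which share no array with ED and ES, gave a further measure of the cell type difference, added after the comparisons were set. No scan time held both cell types within either of these comparisons, so scan time and cell type cannot be told apart in them. At 4 h (EDRL against ESRL) 7 of 32 members tested were lower and 4 higher, where 49% of all genes were called, 24.4% lower and 24.5% higher. Nup210 (-6.82 ± 0.35), Xpo5 (-1.66 ± 0.21) and Nup85 (-1.48 ± 0.23) were lower again and Xpo7 (1.79 ± 0.73) higher, while Xpot (0.92 ± 0.13, adjusted p = 5.48e-05) passed the p limit alone and Xpo1 (-0.86, adjusted p = 0.0712) did not. Nup62, Nup153, Nup43 and Nup88 were lower too, by -1.06, -1.11, -1.20 and -1.09, Nup43 against 1 usable ESRL array, and Thoc1 (1.47 ± 0.22) and Kpna4 (1.01) were higher. Tnpo1 was called higher as well (3.83 ± 1.12) although its groups overlapped. At 15 min (EDRE against ESRE) 3 of 32 were lower (Nup210, Nup43 and Nup88) and 3 higher (Ran, Ndc1 and Thoc1), where 45.9% of all genes were called, 27.5% lower and 18.4% higher. For Nup43 and Nup88 only replicate 1 of EDRE was usable, so that a lone array was assumed to vary like the other groups, and with outlier spots kept Nup88 differed by -0.38 (adjusted p = 0.268) and was not called. The other 4 use all 3 EDRE arrays, including those with many outlier marks. Of the members called in ED against ES, only Nup210 was called again at 15 min. The 3 exportins tested there differed by -0.82 to 0.85, with 1 usable EDRE array for Xpo5 and Xpot.

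Promoters are shown for Nup210, Xpo1, Xpo5 and Xpot, called in ED against ES, and for Ran, past the p limit alone. Nup85 and Xpo7, also called, had no window. The windows are those RefSeq gives for build GRCm38.p6, from 250 bases before to 50 bases after the annotated start. The letters marked differ between the genes. Capitals mark every CG dinucleotide in Nup210 (chr6:91116777-91117076, minus strand), CCAAT on either strand in Xpo1 (chr11:23255791-23256090, plus strand), the NRF1 motif in Xpo5 (chr17:46202561-46202860, plus strand), CACGTG in Xpot (chr10:121626283-121626582, minus strand) and both of the last motifs in Ran (chr5:129019906-129020205, plus strand).
Nup210: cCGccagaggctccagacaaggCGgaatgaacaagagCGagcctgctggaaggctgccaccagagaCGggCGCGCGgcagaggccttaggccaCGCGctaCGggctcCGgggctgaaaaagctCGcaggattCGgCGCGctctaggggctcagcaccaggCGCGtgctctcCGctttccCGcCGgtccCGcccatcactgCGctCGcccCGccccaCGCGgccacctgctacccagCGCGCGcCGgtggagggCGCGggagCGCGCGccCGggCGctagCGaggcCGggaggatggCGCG
Xpo1: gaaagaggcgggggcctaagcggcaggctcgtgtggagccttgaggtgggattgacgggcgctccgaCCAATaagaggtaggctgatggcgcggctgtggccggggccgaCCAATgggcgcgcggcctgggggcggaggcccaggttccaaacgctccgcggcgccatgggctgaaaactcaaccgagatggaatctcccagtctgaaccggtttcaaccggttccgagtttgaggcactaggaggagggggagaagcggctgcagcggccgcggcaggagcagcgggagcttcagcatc
Xpo5: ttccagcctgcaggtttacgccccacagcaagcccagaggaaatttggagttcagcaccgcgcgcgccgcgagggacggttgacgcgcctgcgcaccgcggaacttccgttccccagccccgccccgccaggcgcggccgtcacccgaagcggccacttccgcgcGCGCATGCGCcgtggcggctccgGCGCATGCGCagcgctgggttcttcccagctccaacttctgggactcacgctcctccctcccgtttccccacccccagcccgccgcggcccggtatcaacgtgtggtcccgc
Xpot: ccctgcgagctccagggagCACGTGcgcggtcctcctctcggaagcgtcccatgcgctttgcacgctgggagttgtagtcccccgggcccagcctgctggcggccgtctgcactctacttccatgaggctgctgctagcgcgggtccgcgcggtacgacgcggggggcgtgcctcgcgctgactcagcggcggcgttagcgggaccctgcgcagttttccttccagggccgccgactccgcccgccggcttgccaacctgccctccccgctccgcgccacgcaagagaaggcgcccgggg
Ran: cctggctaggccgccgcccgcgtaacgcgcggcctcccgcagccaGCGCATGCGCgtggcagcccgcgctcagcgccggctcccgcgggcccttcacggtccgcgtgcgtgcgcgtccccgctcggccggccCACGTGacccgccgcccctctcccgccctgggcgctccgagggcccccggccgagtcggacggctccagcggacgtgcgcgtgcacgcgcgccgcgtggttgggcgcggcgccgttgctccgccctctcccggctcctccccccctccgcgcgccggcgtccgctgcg

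The Nup210 window held 41 CG dinucleotides and 73.7% G and C, the Xpo5 window 40 and the Xpot window 38. Promoters of 37 of the 46 members were in the table, with a median of 27 CG dinucleotides, against 7 over all 27025 genes with a window. The NRF1 motif, searched as the palindrome of letters in capitals in the Xpo5 window, was found in 5 of the 37 (Nup107, Nup62, Nup50, Xpo5 and Ran), or 13.5%, against 1.07% of all genes, and at 2 places in Xpo5. CACGTG, the E box bound by MYC and related factors, was found in 7 (Nup93, Nup188, Nup54, Ranbp2, Xpot, Ipo7 and Ran), or 18.9%, against 8.09%. CCAAT was found in 16, or 43.2%, against 41.1%. Both strands were searched, the NRF1 motif and CACGTG read the same on both, and in Ran their matches lie apart. The NRF1 motif and CACGTG themselves hold CG, in which the members' windows were richer. The shares over all genes were not matched for this. A match is a description of the letters only. Of the 5 genes with the NRF1 motif, Xpo5 was called lower in ED, and by the p limit alone Nup62 was lower and Ran higher. Nup107 did not pass, but was called lower with outlier spots kept. Nup50 could not be tested without those spots.

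For 13 of the 46 members no test of ED against ES was possible without the outlier spots or above background. With those spots kept, 44 members were tested, 2 were higher and 6 lower, where 40.8% of all genes were called, 15% higher and 25.8% lower. The 2 that joined the lower members were Nup107 (-1.34 ± 0.38) and Kpna1 (-1.28 ± 0.45), an importin alpha. Nup88, on the cytoplasmic face, was lower by -0.84 ± 0.29 (adjusted p = 0.0233), and Sec13 of the Y complex by -0.50 ± 0.19 (adjusted p = 0.039), both without reaching the fold limit. Nup160 (-0.71), Nup50 (-0.74), Nup43 (-0.37) and Rangap1 (-0.45), the activator of the Ran GTPase, did not pass, and neither did Tpr, Ranbp2, Seh1l, Nup35 or Thoc3. Both probes of Rangap1 were marked on every array. Nup93 and Nup214 remained untested, since neither was well above background on all 3 arrays of ES or ED.

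After IR, 0 of the members that could be tested were called in ES cells at either time or in ED cells at 4 h, and 2 were called in ED cells at 15 min. In ES cells at 15 min 0 of 31 members tested were called, where 0.488% of all genes were (the test named in the methods also called 0). All but Xpo7 differed by less than 1 in size, and the median difference was -0.06 with a median SE of 0.24. The smallest p belonged to Xpot, at 4.30, 4.14 and 4.11 in ESRE against 3.79, 3.56 and 3.77 in ES, a difference of 0.48 ± 0.14 without overlap (limma adjusted p = 0.184). Kpna4 was at 3.22, 3.31 and 3.52 against 2.57, 2.62 and 2.62, a difference of 0.75 ± 0.24 (adjusted p = 0.259). Ipo5, an import receptor for ribosomal proteins and histones, was at 5.24, 4.96 and 5.20 against 4.73, 4.60 and 4.82, a difference of 0.42 ± 0.17 (adjusted p = 0.451). In these 3 genes all ESRE arrays were above all ES arrays. The groups did not overlap for 10 of 25 members measured on all 6 arrays, where 34.6% of all genes did not overlap.

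In ES cells at 4 h 0 of 31 members were called, where 7.4% of all genes were (the test named in the methods called 0). Pom121 rose by the p limit alone, from 3.50, 3.44 and 3.57 to 4.26, 4.01 and 3.76, a change of 0.51 ± 0.15 (limma adjusted p = 0.0494), where 9.21% of all genes passed that limit. The groups did not overlap for 6 of 25 members, where 34.3% of all genes did not. Xpo1 was at -5.13, -3.19 and -4.02, against -3.22, -2.96 and -2.97 in ES, a difference of -1.06 ± 0.40 (adjusted p = 0.113) with overlap.

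Tnpo1, the receptor that imports many RNA-binding proteins, divided the ESRL arrays. Its brightest probe was at -7.34, -1.29 and -7.26 in ESRL, against -1.52 and -1.57 on the 2 usable ES arrays, a mean difference of -3.75 ± 1.26 (limma adjusted p = 0.0824). Its second probe gave -7.18, -1.30 and -6.58. Replicate 2 thus stayed at the level of ES on both probes while replicates 1 and 3 were far below it. Neither probe was well above background on replicate 1, the ESRL array with the fewest such probes (63.3% of all). Replicate 3, with 78.0%, shared its scan time with replicate 2, and both probes were well above background there. The EDRE arrays were low as well, at -4.69, -3.43 and -3.99 against -1.18, -1.32 and -1.74 in ED, a difference of -2.62 (adjusted p = 0.156), whereas ESRE and EDRL did not leave the range of -1.74 to -1.33. Of 25815 genes well above background in ES and on replicate 2 of ESRL, 106 (0.411%) were lower on both other ESRL arrays by more than 3, and Tnpo1 was the only member among them.

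In ED cells at 15 min 2 of 33 members were called, both higher, where 4.87% of all genes were called and 2.05% were higher. For 18 of the 33 only replicate 1 of EDRE was usable, and the test then takes the spread from the other groups. Kpnb1 went from 3.85, 4.42 and 4.43 in ED to 4.82, 5.68 and 5.58 in EDRE, a change of 1.13 ± 0.24 without overlap (limma adjusted p = 0.0181). Ndc1, which anchors the pore in the membrane, went from 3.34, 3.62 and 4.15 to 3.93, 5.17 and 5.42, a change of 1.14 ± 0.31 (adjusted p = 0.04), with overlap. For both, EDRE replicates 2 and 3 were the high arrays, and these are the arrays with many outlier marks. Without them, as an alternative added after seeing the data, the changes were 0.58 (adjusted p = 0.397) and 0.22 (adjusted p = 0.81) and 0 members were called, with the spread taken from the other groups since 1 EDRE array remained. Thoc1 passed the p limit alone, where 7.38% of all genes did, from -2.73, -2.68 and -2.44 to -2.01, -1.94 and -1.55, a change of 0.78 ± 0.22 (adjusted p = 0.0468), and was 0.61 on replicate 1 alone (adjusted p = 0.429). The groups did not overlap for 3 of 12 members measured on all 6 arrays, where 25.5% of all genes did not.

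In ED cells at 4 h 0 of 33 members were called, where 1.61% of all genes were (the test named in the methods called 0). All 33 differed by less than 1. Nup62, a central channel protein, fell by the p limit alone, where 2.34% of all genes passed, from 4.30, 4.38 and 4.48 to 3.95, 3.78 and 3.78, a change of -0.55 ± 0.13 (limma adjusted p = 0.0442). Ipo7, an import receptor for ribosomal proteins, was at 1.86, 1.69 and 1.51 against 2.84, 2.60 and 1.88 in ED (difference -0.75 ± 0.24, adjusted p = 0.139), and Thoc2 at -1.51, -1.55 and -1.61 against -0.48, -0.91 and -1.36 (difference -0.64 ± 0.23, adjusted p = 0.223). In each of these 3 genes the EDRL arrays lay below all ED arrays. The groups did not overlap for 13 of 29 members, where 44.8% of all genes did not.

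**Figure D4:**
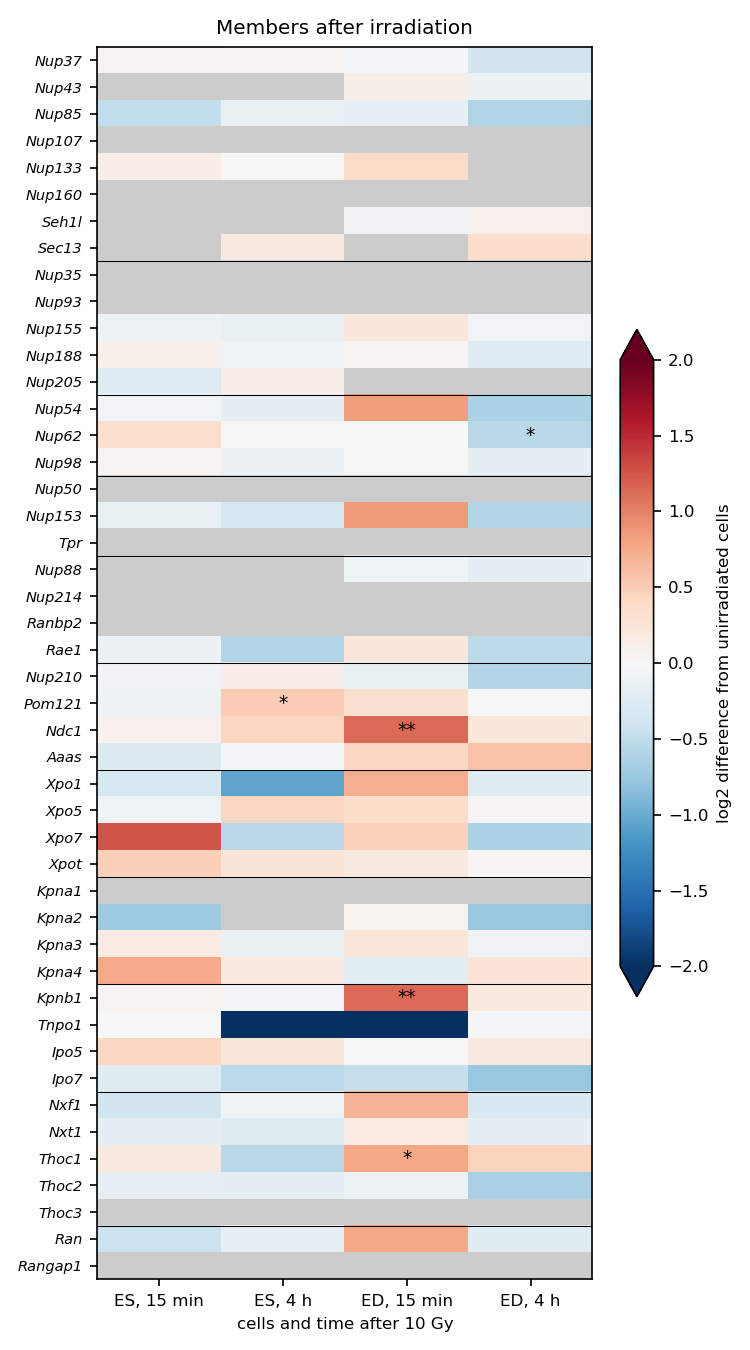
Log2 difference from the unirradiated cells of the same type (color, limited to 2 in size) for each member at 15 min and 4 h in ES and ED cells. Gray cells were not tested, 2 stars mark members called and 1 star those past the p limit alone. Most cells are pale, and Kpnb1 and Ndc1 at 15 min in ED are the 2 called.

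Whether the change after IR differed between ES and ED was tested as an interaction. At 15 min 0 of 30 members were called, where 1.98% of all genes were, and at 4 h 0 of 29, where 1.13% were (limma). The smallest p at 15 min were those of Nxf1 (1.04 ± 0.33, adjusted p = 0.116), Kpnb1 (1.06 ± 0.34, adjusted p = 0.122) and Ran (1.20 ± 0.41, adjusted p = 0.135), all more positive in ED. Nxf1 was at 2.70, 2.80 and 2.74 in ES, at 2.39, 2.57 and 2.20 in ESRE, at 2.54, 2.24 and 2.07 in ED and at 2.61 and 3.31 on the 2 usable EDRE arrays. Ran was at 2.36, 2.58 and 2.44 in ES and at 2.18, 1.92 and 1.99 in ESRE, without overlap, and at 3.49, 3.32 and 2.76 in ED and at 3.18, 4.65 and 4.06 in EDRE, with overlap. The high EDRE values are again those of replicates 2 and 3. At 4 h they were those of Thoc1 (1.00 ± 0.32, adjusted p = 0.155), Nup62 (-0.54 ± 0.19, adjusted p = 0.205) and Pom121 (-0.50 ± 0.21, adjusted p = 0.278). Thoc1 was at -3.02, -3.32 and -2.90 in ES and -3.92, -3.05 and -3.92 in ESRL, against -2.05, -2.21 and -2.23 in EDRL, above its ED values. Nup62 was at 4.90, 4.95 and 4.86 in ES and 5.01, 4.78 and 4.90 in ESRL, so its groups overlapped in ES and not in ED.

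With outlier spots kept, 11 members that are marked on all ES arrays also had values. Thoc3 and Nup43 are given because their change after IR, or its difference between ES and ED, was called in at least 1 test. Thoc3 is marked on 16 of the 18 arrays and Nup43 on 7. Thoc3, a subunit of the THO complex, was at 0.96, 0.80 and 0.79 in ES, at 1.83, 1.79 and 1.90 in ESRE and at 2.19, 1.61 and 1.76 in ESRL, but at 0.59, 0.79 and 0.80 in ED and 0.41, 0.85 and 0.74 in EDRL. All irradiated ES arrays were thus above all unirradiated ones, with a change of 0.99 ± 0.20 at 15 min (limma adjusted p = 0.0527) and 1.01 ± 0.20 at 4 h (adjusted p = 0.00932), where 6.3% of all genes were called at 4 h with these spots kept. The interaction at 15 min was -1.51 ± 0.29 (adjusted p = 0.0173), where 2.48% of all genes were called, with EDRE at 0.59, -0.01 and 0.04. The lower EDRE values are those of replicates 2 and 3, the arrays with many outlier marks. Nup43 of the Y complex was at 3.37, 3.19 and 3.62 in ES and at 4.75, 4.01 and 4.74 in ESRE, a change of 1.11 ± 0.32 (adjusted p = 0.206). Its interaction of -1.93 ± 0.45 (adjusted p = 0.0402) includes the same EDRE replicates 2 and 3, at 1.70 and 1.76. In ESRL Nup43 was at 4.12, 4.26 and 4.39, also above all ES arrays. The paper lists Nup43 among the mRNAs altered in irradiated stem cells at both times, with a limit of more than 2-fold. Here, with these spots kept, its change in ES cells was called at neither time. At 4 h its mean was 4.26 in ESRL against 3.39 in ES. Without the marked spots its change in ES cells could not be tested here. With these spots kept Tnpo1 was also called in ESRL (-3.74 ± 1.07, adjusted p = 0.0483). The ES arrays had a scan time of their own, and its part in these values was not tested.

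**Figure D5:**
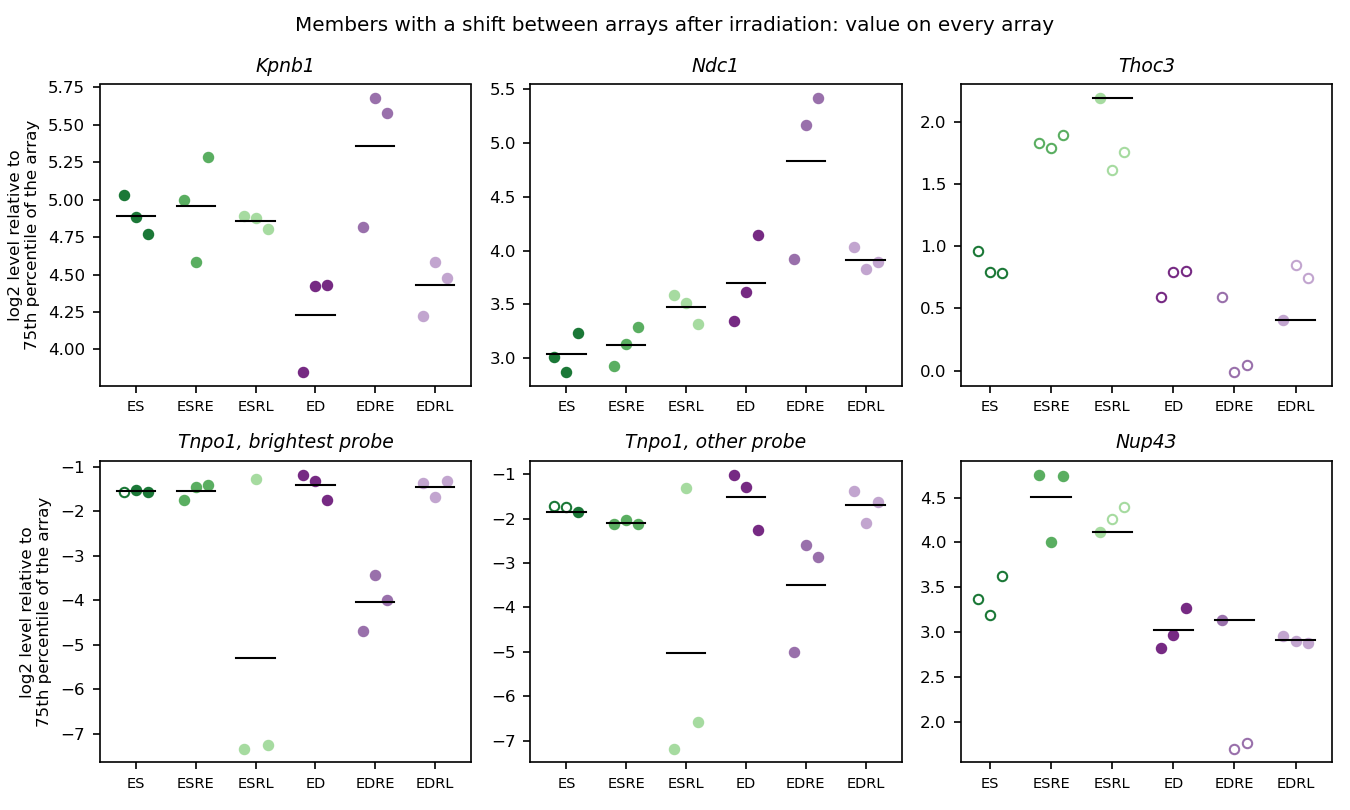
Log2 level minus the 75th percentile of the array (vertical axes, which differ between panels) on each of the 3 arrays of the 6 groups, with open points for spots marked as outliers and bars for means of the filled points. EDRE replicates 2 and 3 carry the rise of Kpnb1 and Ndc1, both probes of Tnpo1 split the ESRL arrays in the same way, and Thoc3 is higher in irradiated ES than in ES.

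A list of 51 further genes of the pathway, none of them among the 46, was examined in the same way, and 48 were on the array. In ED against ES 6 of 43 tested were higher and 11 lower, against the 41% of all genes called. The 3 largest rises were Eny2 (2.43 ± 0.61, well above background on 2 of 3 ES arrays), a subunit of the TREX-2 export complex, Zc3h11a (1.92 ± 0.43), which takes part in mRNA export, and Tmem33 (1.78 ± 0.22). Of the falls Nxf7, a relative of Nxf1, was well above background on no ED array and entered the test through ES alone. It was usable on 1 ES array, at -2.27, and with the marked ES spots kept it was at least 44.2-fold lower. Snupn (-2.07 ± 0.28), which imports spliceosomal small nuclear ribonucleoproteins, and Nxf3 (-1.74 ± 0.20) followed. After IR, in ED at 15 min, Cse1l, which returns importin alpha to the cytoplasm (1.33), the export helicase Ddx39b (1.05) and Tmem33 (1.05) rose, and Zc3h11a (-2.52) fell, as did Ipo13 (-2.48), which was usable on 1 array of each group. Without EDRE replicates 2 and 3 the first 3 changes were 0.22, 0.18 and 0.39 and none passed, and the other 2 could not be fitted. In ES at 15 min 1 of 40 was called, where 0.488% of all genes were. None of the list was called at 4 h in either cell type.

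As a check of the irradiation, 10 targets of p53 were examined. In ED at 4 h 6 of 10 were higher, where 1.35% of all genes were, Fas by 2.67 and Trp53inp1 by 2.22, and in ES at 4 h 1 of 9 was, Trp53inp1 by 1.15, where 0.647% of all genes were. The summed signal of the 10 targets was 49.0 to 50.7 times the 75th percentile in ED and 130 to 149 times in EDRL, and 92.1 to 93.8 in ES and 133 to 151 in ESRL. On the same EDRL and ESRL arrays 0 transport members were called.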

How the data were processed

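RNA of 18 samples was hybridized to 1-color arrays. The authors deposited scanner output in which a spot's processed signal is a background-subtracted intensity, not normalized between arrays (Agilent Feature Extraction 10.7.3.1 per the file headers, 9.1 in the submitters' processing notes), and a table of log2 values of 30133 probes, which the authors deposited without a stated scale and which matched the log2 scanner signal minus a constant for each array. That constant lay close to the log2 median signal of the array. The table differed from the log2 scanner signal by -8.10 for ES replicate 1, with a median signal of 276. For EDRE replicate 2, with a median signal of 43.2, it differed by -5.42. No other samples' columns were found. Control spots were left out, which left 37246 probes, 22216 named through RefSeq. The signal was put on the log2 scale and the 75th percentile over all probes of the array, outlier spots included, was subtracted. Tested probes had to be detected, that is well above background in at least 0.5 of their spots, on every array of 1 or more of the groups compared. Between 49.5% and 86.1% of probes were well above background, and precision is limited by having 3 arrays a group.

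Least squares over all 6 groups were fitted for each pattern of missing spots and moderated with limma 3.58.1 in R 4.3.3, with Benjamini-Hochberg adjustment over all probes tested. The procedure was tested on simulated data for ED against ES, at simulated log2 changes of 2 and 3 in size. Of 188 changed probes 171 (91.0%) were called among 28636, with 3 false calls. The noise was drawn independently for each array, without a scan effect. The changes were placed in probes well above background on all arrays. Every member called in ED against ES except Nup210 differed by less than 2, a size that was not simulated. The members were given by name, and the members and the gene lists were chosen with earlier results of these data known. Values on every array were given for members called and for the 3 of smallest p in the other comparisons. In all, 13 alternatives and 18 fits with an array left out were tried, and leaving out EDRE replicates 2 and 3 together and comparing irradiated ED with irradiated ES were added later. Protein sequences were not analysed here. The values of 1 gene of the wider pathway list are not reported here.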

Additional observations from a re-analysis of the deposited data

How the results depend on the processing

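Of the 6 members called in ED against ES, Nup210 and Xpot were called under all 13 alternatives tried for them, Xpo1 in 12, Xpo5 in 10, Nup85 in 9 and Xpo7 in 8, and no direction turned. With 2 members higher and 4 lower in the main setting, median scaling and the authors' value table each gave 7 higher and 2 lower, no fold limit 4 and 11, and scan time as a random block 1 and 1. The value table was itself close to median scaling, so it is not a separate check of that setting. Median scaling also raised the median difference of all genes. Apart from the methods' t-test below, the counts here are given without the share of all genes. The count of higher members was also 1 with normexp background (offset 50), no detection filter, the replicate block, and without EDRE replicates 2 and 3. With arrays left out in turn it was 1 to 2, being 1 in 14 of 18 fits through the loss of Xpo7 and 2 without ESRE replicate 1 or 3 or ESRL replicate 1 or 2, and the count lower was 3 to 5. In EDRE the 2 members called became 6 with the value table and 4 with normexp, and 0 with quantile normalization, scan time as a block, only the groups compared, the methods' t-test, or without EDRE replicates 2 and 3. With arrays left out it was 0 to 6, 6 without EDRE replicate 1, 3 without ESRL replicate 2, 1 without any single ES, ESRE or EDRL array, and 0 without EDRE replicate 2 or 3 or ED replicate 1 or 2. In ESRL the count of 0 became 2 with outlier spots kept, 1 with the value table and 1 with no fold limit (0 to 2 with arrays left out, 2 without ESRL replicate 2). In EDRL it became 1 with no fold limit (0 to 1 with arrays left out, 1 without ED replicate 3), and in ESRE it stayed 0 throughout. The 15 min interaction gave 2 members with outlier spots kept and 1 with only the groups compared (0 to 6 with arrays left out, 6 without EDRE replicate 1 and 1 without ESRL replicate 2), and the 4 h interaction 0 to 2 with arrays left out, 2 without ESRL replicate 2. The causes were not tested. The methods' t-test at its own threshold, unadjusted and more than 2-fold, gave 2 higher and 4 lower of 30 members in ED against ES. There 10418 of all 24996 genes passed. After adjustment all 6 members passed, where 10183 of all genes did. In EDRE against ED Kpnb1 and Tnpo1 of 15 members passed, where 957 of all 16377 genes did. Neither passed after adjustment, where 1 of all genes did. Samples with the same replicate number did not deviate together (9 of 45 pairs had a correlation over 0.1, range -0.43 to 0.30). With 3 arrays a group this cannot show whether they shared a culture or batch. With the replicate block the members called lower stayed 4 and those in EDRE 2. Bright probes with outlier marks and members near background, Nup93 and Nup214, set the limit of what could be measured.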
